A study of Rattus norvegicus with 10 samples.

Results

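Creb3l1 (ENSRNOG00000005413) is the transcript that the short hairpin RNA (shRNA) of this experiment was directed against, and it is 1 of the 32402 genes counted in each supraoptic nucleus (SON). It was taken by its identifier in all 10 SONs. The SONs came from 5 male Sprague-Dawley rats, each of which received an adeno-associated virus with a non-targeting shRNA in one SON (control) and a virus with a Creb3l1 shRNA in the other (Creb3l1 knockdown), and the tissue was taken as punches after 3 weeks. No SON without virus was among them. In the labels every control SON carries the letter L and every knockdown SON the letter R, so the virus and what that letter marks cannot be told apart. The promoter that drove the shRNA and the cells that took up the virus are not given in the sources used here.

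Creb3l1 encodes a basic leucine zipper transcription factor of the CREB3 family that is held in the membrane of the endoplasmic reticulum (ER) as an inactive precursor. It moves to the Golgi when secretory demand rises, where the site-1 and site-2 proteases release the part that enters the nucleus. In the SON the magnocellular neurones, which make vasopressin or oxytocin and send them to the posterior pituitary, carry a heavy secretory load, and Creb3l1 is known to respond to that load and to act on the vasopressin gene.

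Control SONs had total counts of 29754252 to 34382889 and knockdown SONs of 29020948 to 33612965. Levels are given as CPM, the count of a gene scaled to a common library size, after scaling with TMM factors, which correct the library size for composition. They compare SONs for 1 gene and not genes with each other. Of 16286 genes with enough counts to be tested, 1984 could be named, and these came from a list that the study had ranked by difference between these same groups. The direction of a named gene is therefore no independent evidence. None of the 55 members of 8 cell type marker lists could be named, so the makeup of the punches was not analysed here, and in bulk tissue fewer cells of a type and less RNA per cell cannot be told apart.

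Creb3l1 was lower in the knockdown SON of all 5 animals. In the control SONs of animals 1 to 5 its level was 20.3, 26.5, 30.7, 33.5 and 23.4 CPM. In the knockdown SONs of the same animals it was 7.10, 13.8, 8.69, 16.7 and 13.6 CPM. The groups did not overlap, the highest knockdown SON (animal 4) lying below the lowest control SON (animal 1). The means were 26.9 ± 5.35 CPM (SD, n = 5) and 12.0 ± 3.96 CPM (SD, n = 5), so that 44.6% of the control mean was left. The log2 fold change was -1.16 ± 0.24 (SE), with an adjusted p of 0.0173 in edgeR's quasi-likelihood test. Exchanging the SONs between the groups in all 252 ways gave a two-sided exact permutation p of 0.00794, the smallest value the design allows. With the animal as a replicate block the log2 fold change was -1.21 and the adjusted p 0.0586. Over the 5 pairs an exact two-sided sign-flip test cannot go below 0.0625, which was the value obtained.

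The level left in the knockdown SON ranged from 28.3% to 58.4% of the control SON between the animals. The level left was 35.0% of the own control SON in animal 1 (95% interval 29.9 to 40.9%), from 225 counts against 600. It was 52.2% in animal 2 (46.5 to 58.6%, 446 counts against 887) and 28.3% in animal 3 (24.6 to 32.4%, 261 against 1069). It was 49.7% in animal 4 (44.5 to 55.5%, 462 against 1114) and 58.4% in animal 5 (51.8 to 65.8%, 423 against 793). These Clopper-Pearson intervals cover counting error only, and the spread between punches of 1 SON was not measured. The intervals of animals 1 and 3 overlapped each other, those of animals 2, 4 and 5 overlapped each other, and the first set lay below the second. Over the 5 pairs the level left was 44.7 ± 12.6% (SD, n = 5). The order of the pairs, from deepest to shallowest, was animal 3, 1, 4, 2 and 5.

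**Figure D1:**
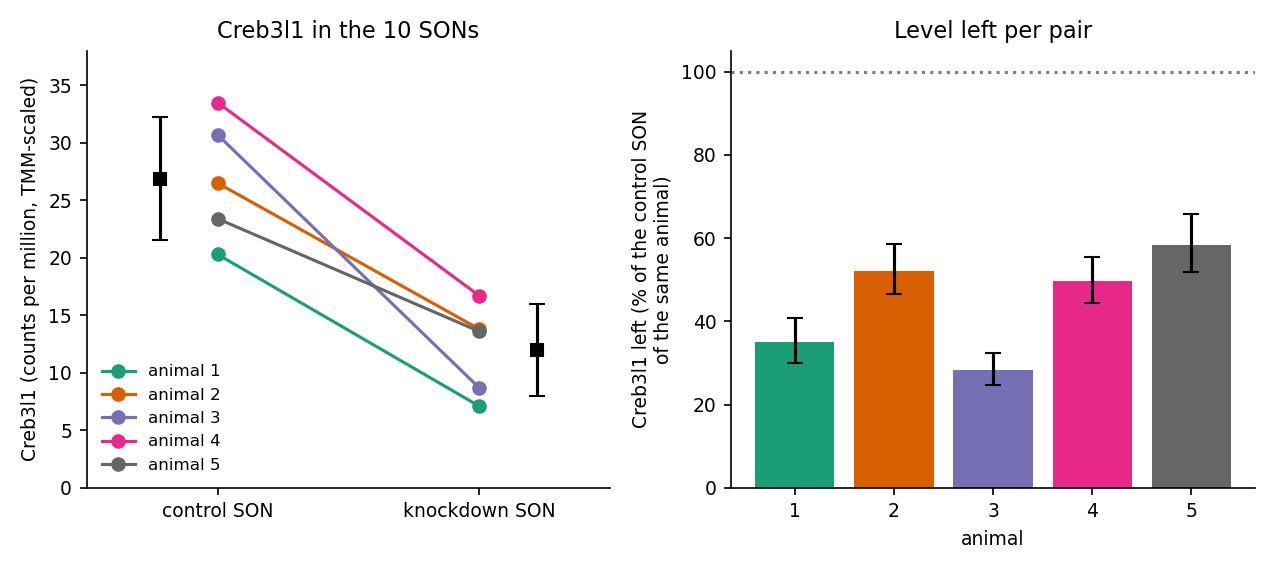
Left, Creb3l1 level (CPM, TMM-scaled) in the control and knockdown SON of each animal, joined by a line, with the mean and SD of each group (n = 5) as black squares and bars. Right, the level left in the knockdown SON as a percentage of the control SON of the same animal, with 95% counting intervals. All 5 lines fall, and animals 1 and 3 lie at 35.0 and 28.3%, below the other animals.

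Creb3l1 also varied among SONs given the same virus. The coefficient of variation was 19.9% in the control group and 33.0% in the knockdown group, against a counting error of 6.67% at the lowest count. The highest SON held 1.65 times the level of the lowest in the control group and 2.34 times in the knockdown group. The pooled SD within the groups was 0.42 on the log2 scale. Among 2467 genes within 0.5 log2 units of its mean level the median SD was 0.21, and 83.1% of them had a smaller SD than Creb3l1. The pooled SD takes in the knockdown SONs, where the shRNA was directed against Creb3l1. The control SONs alone were not ranked in this way.

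Between the groups 1280 genes, 7.86% of the 16286 tested, passed an adjusted p of 0.05. Of these, 732 (4.49% of those tested) were lower and 548 (3.36%) higher in the knockdown SONs. With scaling by library size alone the split was 1131 lower and 349 higher, and with the animal as a block 9 genes passed, 7 lower and 2 higher. Creb3l1 did not show the largest fall. Of the 732 genes, 115 had a more negative log2 fold change, and 88 of the 115, with or without a symbol, reached 1 CPM in a group.

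The genes called lower did not shift most in the animals with the deepest Creb3l1 loss. In animal 3, the deepest pair, Creb3l1 differed by -1.81 log2 units between the SONs, and the median difference of the other 731 genes called lower was -0.37. In animal 1, where Creb3l1 differed by -1.5, the median was -0.57. Animals 4 and 2, with Creb3l1 differences of -1.0 and -0.93, had medians of -0.60 and -0.55. In animal 5, the shallowest pair at -0.77, the median was -0.66, further from 0 than in any other pair. The 548 genes called higher had medians of 0.43 in animal 3, 0.53 in animal 1, 0.48 in animals 4 and 2, and 0.37 in animal 5, so that theirs was largest in the second deepest pair and smallest in the shallowest. The median over all genes lay between -0.02 and 0.06 in the 5 pairs. These medians are a description, since the genes were chosen by their group difference in the same SONs.

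Genes of the magnocellular and unfolded protein response lists are given next, with the differences in pairs from animal 1 to animal 5. Of 14 genes for magnocellular peptides and identity 3 could be named. Prodynorphin (Pdyn), the precursor of dynorphin peptides that is made with vasopressin, stood at 544, 324, 416, 600 and 465 CPM in the control SONs of animals 1 to 5. It stood at 90.6, 82.8, 259, 138 and 27.4 CPM in the knockdown SONs. The groups did not overlap, and the knockdown SON of animal 3 held the highest level of its group. The log2 fold change was -1.97 ± 0.48 (SE) with an adjusted p of 0.0331 (edgeR), 0.0930 with the replicate block and up to 0.0934 when single SONs were left out, 7 of 10 of which ended the call. These were all control SONs but that of animal 2, and the knockdown SONs of animals 1, 2 and 4.

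Sim1, a transcription factor needed for the formation of magnocellular neurones, measured 52.7, 58.5, 44.6, 72.8 and 48.0 CPM in the control SONs. In the knockdown SONs it measured 23.0, 18.6, 35.3, 29.9 and 15.6 CPM, all below the control SONs. It fell by 1.18 ± 0.23 (SE) on the log2 scale, with an adjusted p of 0.0136 (edgeR) and 0.0711 with the block. The fall was again least in animal 3, at -0.33, against -1.19 to -1.65 in the other animals. Cartpt, the precursor of CART peptides, had a log2 fold change of -1.17 ± 0.40 (SE) and an adjusted p of 0.102 (edgeR), 0.0125 with DESeq2 and 0.0386 with limma-voom. It was 36.6, 17.8, 24.5, 28.0 and 23.0 CPM in the control SONs and 6.57, 7.07, 26.2, 11.2 and 6.84 CPM in the knockdown SONs. The knockdown SON of animal 3 lay within the control range and the other 4 lay below it. Without the knockdown SON of animal 3 the log2 fold change of Cartpt was -1.73, with an adjusted p of 0.00289 (edgeR). That was the strongest of the fits with single SONs left out, which ran to -1.02 and an adjusted p of 0.215. With the replicate block the adjusted p was 0.13.

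Of the 12 sensors and effectors of the unfolded protein response, Eif2ak3 could be named. It encodes PERK, the ER kinase that phosphorylates eIF2alpha. Its control SONs lay at 54.1, 48.2, 49.2, 57.1 and 53.0 CPM and its knockdown SONs at 39.8, 36.8, 38.6, 40.9 and 37.5 CPM, without overlap. It fell by 0.43 ± 0.07 (SE) on the log2 scale with an adjusted p of 0.00553 (edgeR), 0.0695 with the block. The 5 pairs differed by -0.35 to -0.50, a narrow range beside that of Creb3l1 (-0.77 to -1.81). No other member of the CREB3 family and none of the 9 genes of intramembrane proteolysis and ER exit control could be named, so they were not analysed here. The same held for the 8 activity genes and the 8 interferon response genes.

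Of 26 ER chaperones and genes of ER-associated degradation 5 could be named, of which 1 was lower, 1 was higher and 3 did not pass. Over all genes tested 7.86% passed, but the named members came from a list ranked by this same difference, so nothing is read from their count. Clgn, a calnexin-like chaperone best known from the testis, measured 8.35, 8.27, 7.36, 9.68 and 6.60 CPM in the control SONs and 2.78, 1.80, 4.26, 2.67 and 2.52 CPM in the knockdown SONs. The groups did not overlap, and it fell by 1.52 ± 0.22 (SE) on the log2 scale (adjusted p = 0.00386, edgeR; 0.0583 with the block). Ero1b, an ER oxidase that drives disulphide bond formation, rose by 0.76 ± 0.08 (SE), with an adjusted p of 0.00189 (0.0562 with the block). The 3 that did not pass were Hspa5, the chaperone BiP, at 0.36 ± 0.12 (SE, adjusted p = 0.0936), Canx at 0.22 ± 0.09 (SE, adjusted p = 0.190) and Derl1 at -0.26 ± 0.07 (SE, adjusted p = 0.0508). With DESeq2 all 3 passed, with adjusted p-values of 0.0174 for Hspa5, 0.0168 for Canx and 0.00109 for Derl1. Derl1 also passed with RLE (0.0446), library size only (0.0204) and at least 10 counts in every SON (0.0407). With the block none passed, the adjusted p-values being 0.245 for Hspa5, 0.4 for Canx and 0.201 for Derl1. With library size only Hspa5 and Canx did not pass (0.135 and 0.353). Hspa5 lay at 371 to 521 CPM in the control SONs and 466 to 615 CPM in the knockdown SONs, which overlapped.

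The coat and cargo receptors of ER export gave 3 named genes of 24, with 2 higher and 1 not past the threshold. Over all genes 3.36% were higher, and the same limit on the named members holds. Lman1, a lectin that carries glycoproteins from the ER to the Golgi, measured 29.5, 26.4, 28.9, 28.2 and 29.8 CPM in the control SONs and 41.3, 40.4, 41.2, 42.6 and 41.4 CPM in the knockdown SONs. The related Lman2l measured 24.4 to 30.1 and 46.9 to 52.9 CPM. Neither overlapped between the groups, and they rose by 0.53 ± 0.06 (SE) and 0.84 ± 0.07 (SE) on the log2 scale, with adjusted p-values of 0.00189 and 0.00104 (edgeR). With the block the adjusted p-values were 0.0562 and 0.05, neither under the threshold. Sec24c, a cargo-binding coat subunit, differed by 0.28 ± 0.08 (SE, adjusted p = 0.0521 in edgeR). Its adjusted p was 0.00205 with DESeq2, 0.109 with library size only and 0.173 with the block. The knockdown SONs of Lman1 lay between 40.4 and 42.6 CPM, while Creb3l1 varied 2.34-fold among them.

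**Figure D2:**
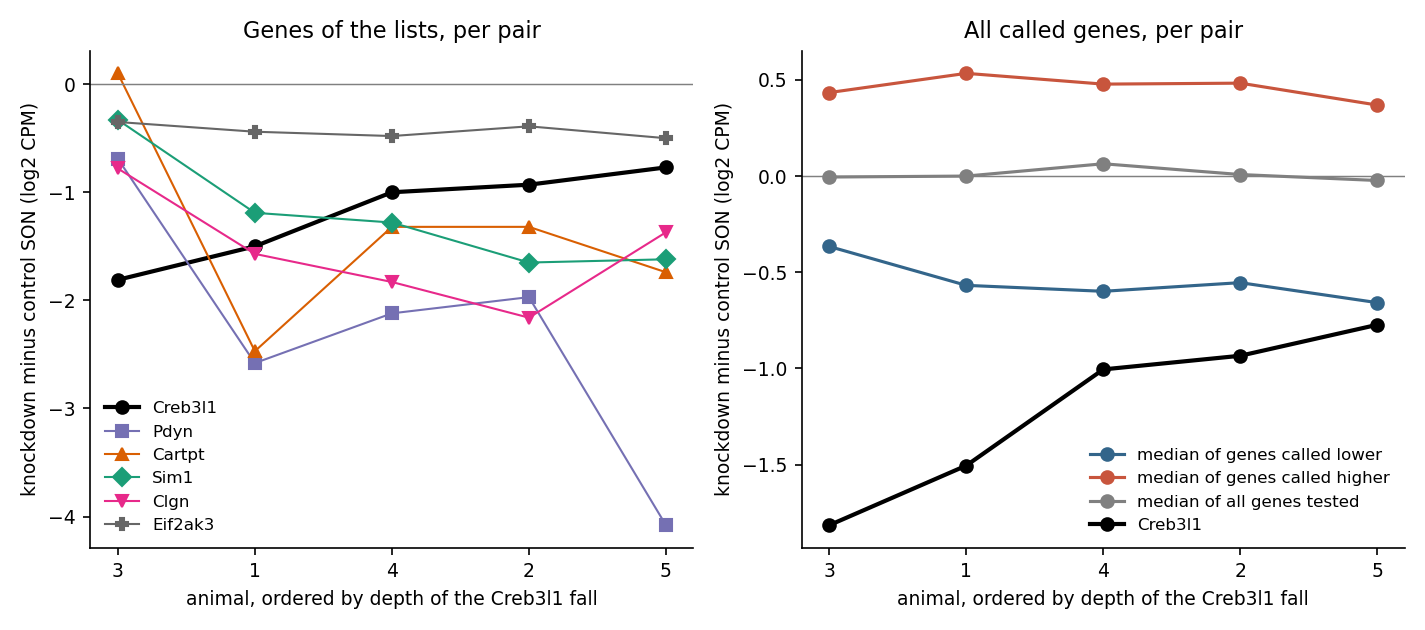
Difference between the knockdown and the control SON of each animal in log2 CPM, with the animals ordered from the deepest (3) to the shallowest (5) Creb3l1 loss. Left, Creb3l1 and genes of the lists, of which Pdyn, Cartpt, Sim1 and Clgn all differ least in animal 3. Right, Creb3l1 and the medians of the genes called lower, called higher and tested; the median of the genes called lower runs from -0.37 in animal 3 to -0.66 in animal 5.

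The next question was which genes followed the Creb3l1 level among SONs given the same virus. For each gene the slope was taken on the Creb3l1 log2 CPM centred within each group, which leaves the group difference out of the estimate. Creb3l1 itself was not a response. Of 16285 genes, 0 (0%) passed an adjusted p of 0.05, and the smallest adjusted p was 0.9999 (edgeR). At an unadjusted p under 0.05 there were 244 genes, 1.5% of those tested, 162 with a positive and 82 with a negative slope. DESeq2 and limma-voom also called 0 genes, with 323 and 237 at an unadjusted p under 0.05. On simulated counts for this test, slopes of 1 and 2 log2 units per log2 unit of Creb3l1 were recovered for 50.0% and 82.0% of 100 genes each. Slopes of this size and smaller could thus be missed with these SONs. The counts of each simulated gene were drawn apart from those of other genes, without the spread that genes share in these SONs. The shares recovered may therefore not hold for the real counts.

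Among the genes with a symbol and at least 1 CPM in a group, the 5 positive and 5 negative slopes with the smallest p did not pass the adjustment and are given as values, and genes without a symbol could not be listed. Misp, a protein of the mitotic spindle cortex, had a slope of 1.62 ± 0.35 (SE, unadjusted p = 0.00115 in edgeR). It ran at 1.62, 2.84, 4, 1.77 and 1.77 CPM in the control SONs and 2.53, 5.89, 3.00, 12.3 and 6.23 CPM in the knockdown SONs. The knockdown SON of animal 4, highest for Creb3l1 in its group, was also highest for Misp. The control SON of animal 4, again highest for Creb3l1 in its group, held Misp at only 1.77 CPM. The other positive slopes of this set belonged to Gm14569 (2.01), Pramef8 (0.44), Fbln1, an extracellular matrix fibulin (0.27), and Yap1, a co-activator of the Hippo pathway (0.34). The negative slopes of the set belonged to Crabp1, a retinoic acid binding protein (-1.15), Cym (-1.21), Col24a1, a collagen (-0.87), Ydjc (-0.43) and Spns2, a sphingosine-1-phosphate transporter (-0.23). Crabp1, at 2.77 to 4.39 CPM in the control SONs and 0.325 to 1.23 CPM in the knockdown SONs, was lower in the knockdown group by a log2 fold change of -2.10 ± 0.34 (SE, adjusted p = 0.00741), 0.0562 with the block. Between the groups Crabp1 was thus lower where Creb3l1 was lower, while the slope within the groups was negative. The other negative slopes of the set also belonged to genes with a negative log2 fold change. Misp, Gm14569, Fbln1 and Yap1 had positive slopes but log2 fold changes of 1.31, 1.90, 0.43 and 0.42. Their adjusted p-values were 0.101, 0.132, 0.0193 and 0.0631 (edgeR group test). Of the positive slopes only Pramef8 was lower in the knockdown group (-0.59).

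None of the genes described from the lists had a slope past the threshold. Eif2ak3 had a slope of -0.01 (95% interval -0.22 to 0.20), Lman1 of -0.01 (-0.20 to 0.17) and Hspa5 of -0.02 (-0.41 to 0.36). Sim1 had -0.06 (-0.75 to 0.63), Clgn -0.28 (-0.92 to 0.36) and Pdyn -0.48 (-1.87 to 0.91). The intervals for Eif2ak3 and Lman1 are narrow and those for Pdyn and Sim1 leave slopes of over 0.5 in either direction possible. Since the within-group test called 0 genes, no gene could pass both it and the group test.

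Over all genes tested the median within-group slope was -0.02 and 44.4% of slopes were positive. Of the 731 genes called lower, 27.6% had a positive slope, with a median of -0.07. Of the 548 called higher, 48.7% had one, with a median of -0.003. At an unadjusted p under 0.05, 1 of the 731 had a positive and 6 a negative slope, and 6 of the 548 had a positive and 2 a negative slope. Both sets were chosen by their group difference in the same SONs, and genes read in the same SONs are not independent of each other. These shares are therefore a description.

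**Figure D3:**
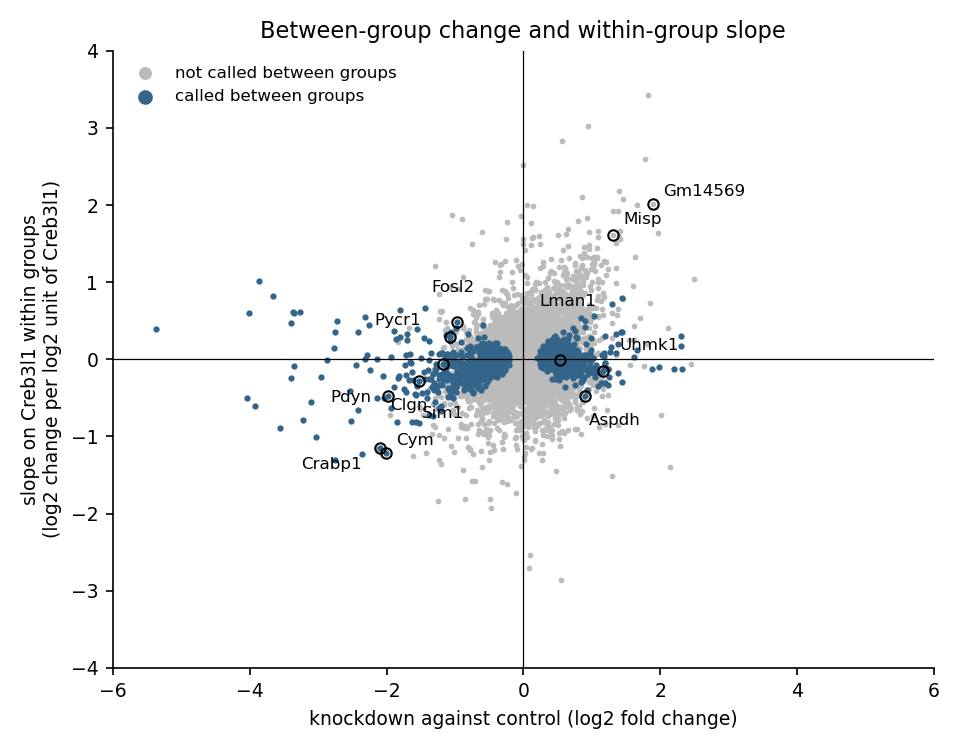
Each point is a gene, with the log2 fold change of knockdown against control on the horizontal axis and the slope on Creb3l1 within groups on the vertical axis, in log2 units per log2 unit of Creb3l1. Blue points are the 1280 genes called between groups less Creb3l1, grey points the rest, circles mark named genes, and 2 genes lie outside the axes. The called genes lie along a slope of 0, which is a description, since the group test that called them favours genes with little spread within groups.

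Slopes fitted apart in the 5 control SONs and the 5 knockdown SONs gave 0 called genes in each (edgeR), with 780 and 521 at an unadjusted p under 0.05. The difference between these slopes was past the threshold for 0 genes, with 1265 at an unadjusted p under 0.05 and a smallest adjusted p of 0.501. DESeq2 gave 0 genes for each of the 3 tests, with 929, 683 and 1674 at an unadjusted p under 0.05. Limma-voom also gave 0, with 758, 486 and 1256.

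With the animal as a block the slope compares the pairs, that is, whether a gene moved with the depth of the knockdown. In this fit 0 genes passed (smallest adjusted p = 0.122, edgeR), while 4306 genes, 26.4% of those tested, had an unadjusted p under 0.05, 2422 with a positive and 1884 with a negative slope. Leaving out animal 2 gave 1353 called genes, and leaving out any other animal gave 0. Only 3 residual degrees of freedom remained with 5 animals. Of the 731 genes called lower between groups, 113 (15.5%, a smaller share than over all genes) had an unadjusted p under 0.05. Of these, 108 had a negative slope, that is, a lesser fall where Creb3l1 fell further. Animal 3 stood apart in this. The median difference of the 731 genes was -0.37 there, but -0.57 in animal 1, the next deepest, and -0.55, -0.60 and -0.66 in animals 2, 4 and 5. Of the 548 called higher, 57 (10.4%) had an unadjusted p under 0.05. Of these, 42 had a negative slope, that is, a greater rise where Creb3l1 fell further. Both sets were chosen by a group test in the same SONs, which favours genes with little spread within groups. Their shares beside that over all genes are therefore a description. Sim1, among the genes called lower, had a blocked slope of -1.12 ± 0.27 (SE, unadjusted p = 0.00534, adjusted p = 0.122 in edgeR). Pdyn had a blocked slope of -2.03 ± 0.84 (SE, adjusted p = 0.191) and Eif2ak3 of -0.10 ± 0.18 (SE, adjusted p = 0.743).

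The first principal component of all tested genes, which held 52.2% of the variance, is set beside the depth of the pairs as a description. Its score rose from control to knockdown SON by 64.2 in animal 3, 52.1 in animal 1 and 2.1 in animal 2, and changed by -86.2 in animal 4 and -100.2 in animal 5. Animals 3 and 1, with the deepest Creb3l1 loss, were thus the ones with the largest rises, but animal 4, deeper than animal 2, had the more negative change. Among the control SONs the scores were -54.8, 25.2, -16.8, 50.1 and 30.2 in animals 1 to 5, and among the knockdown SONs -2.7, 27.3, 47.4, -36.1 and -70.0. The groups overlapped on it and were separated on the second component (17.3%). The named genes with the strongest positive weight were Rassf6, Oxtr (the oxytocin receptor), Oacyl, Dnase2b, Pdyn and Cdk15. Those with the strongest negative weight were Gm14569, SNORA48, RGD1562378, Plaur (the urokinase receptor), Arrdc4 (an arrestin-domain protein) and Lrrn4cl. In animals 1 to 5 Gm14569 differed by 1.36, -0.07, -0.76, 3.69 and 1.77 between the SONs of a pair. SNORA48 differed by 2.14, 2.56, 0.94, 3.9 and 1.33, and RGD1562378 by 0.87, 1.59, 0.32, 2.27 and 1.08. The pair differences of Plaur were -2.31, -1.41, -2.53, -0.34 and 0.27 in animals 1 to 5, those of Arrdc4 0.17, 1.06, 0.16, 1.70 and 1.55, and those of Oxtr -1.66, -1.05, -0.73, -2.31 and -3.67. The part of this component in the blocked slopes was not tested.

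**Figure D4:**
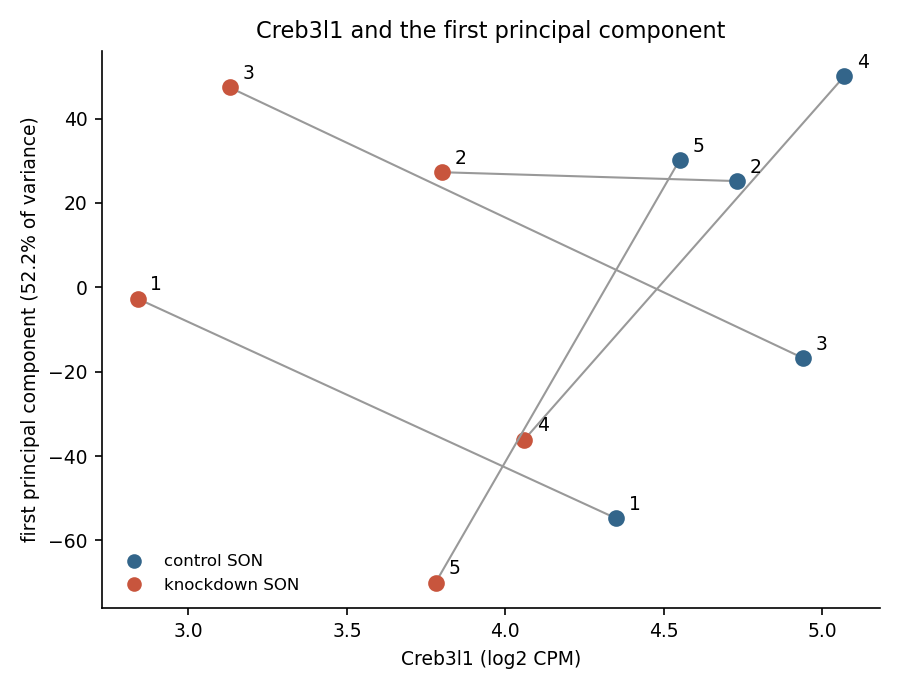
Creb3l1 level (log2 CPM) against the score on the first principal component of all tested genes, for the 5 control SONs (blue) and 5 knockdown SONs (red), with grey lines joining the SONs of an animal, numbered 1 to 5. From control to knockdown the score rises by 64.2 and 52.1 in animals 3 and 1 and falls in animals 4 and 5.

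The genes whose profile over the 10 SONs was most like that of Creb3l1 were found by the root-mean-square difference of centred log2 CPM, which was 0.78 in the median over all tested genes. Because they were picked for this likeness, they are described without a test. The 10 nearest named genes lay at 0.34 to 0.42, and 1 gene without a symbol lay as near. Pycr1, an enzyme of proline synthesis, was the nearest at 0.34. It measured 9.93, 10.7, 11.1, 9.23 and 9.99 CPM in the control SONs and 4.74, 4, 3.43, 6.20 and 5.78 CPM in the knockdown SONs. Its lowest SON was that of animal 3 and its highest knockdown SON that of animal 4, as the latter was for Creb3l1. Mtfr1, a mitochondrial fission regulator, followed at 0.37, with 5.17 to 6.49 CPM in the control SONs and 2.23 to 2.99 CPM in the knockdown SONs.

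Henmt1, which methylates the ends of piRNAs, lay at a distance of 0.39, Tex15, a piRNA pathway gene of the testis, at 0.40, and Mettl1, a tRNA methyltransferase, at 0.41. Henmt1 was at 1.01 to 1.49 CPM in the control SONs and 0.316 to 0.865 CPM in the knockdown SONs, near the lower limit set for naming. Fosl2, a subunit of AP-1, lay at 0.39. It measured 8.21, 5.37, 7.73, 9.20 and 5.27 CPM in the control SONs and 2.49, 2.51, 3.8, 5.08 and 4.36 CPM in the knockdown SONs, without overlap. Aen, a nuclease induced by p53, lay at 0.40. It measured 55.5, 49.9, 60.8, 58.6 and 52.2 CPM in the control SONs and 32.7, 31.3, 26.4, 53.5 and 38.2 CPM in the knockdown SONs, of which that of animal 4 lay within the control range. Ccng1, cyclin G1, lay at 0.41, with 290 to 355 CPM in the control SONs and 142 to 213 CPM in the knockdown SONs. Pramef8 and Rn50_X_0745.4 completed the set. Every gene of the set was lower in the knockdown SON of all 5 animals.

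The 5 named genes nearest to the reversed profile lay at 0.33 to 0.37 and were higher in the knockdown SON of all 5 animals. Aspdh, predicted to be an aspartate dehydrogenase, was nearest. It measured 2.26, 2.21, 1.95, 2.80 and 3.15 CPM in the control SONs and 6.22, 4.40, 4.93, 3.39 and 4.10 CPM in the knockdown SONs, with the highest level in the SON where Creb3l1 was lowest. Uhmk1, a kinase with an RNA-binding motif, lay at 24.2 to 32.9 CPM in the control SONs and 64.6, 63.2, 73.5, 56.2 and 47.8 CPM in the knockdown SONs, without overlap. Ing1, a chromatin reader, lay at 13.4 to 20.4 and 30.1 to 38.2 CPM. Rn60_17_0453.2 and RGD1305455 were the other members. Which genes filled these lists depended on single SONs, of the 10 nearest 3 to 9 and of the 5 reversed genes 2 to 5 remaining when any 1 was left out. Without the knockdown SON of animal 3, 3 of the 10 nearest and 2 of the 5 reversed genes remained, and without the control SON of animal 1, 4 and 3 remained.

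**Figure D5:**
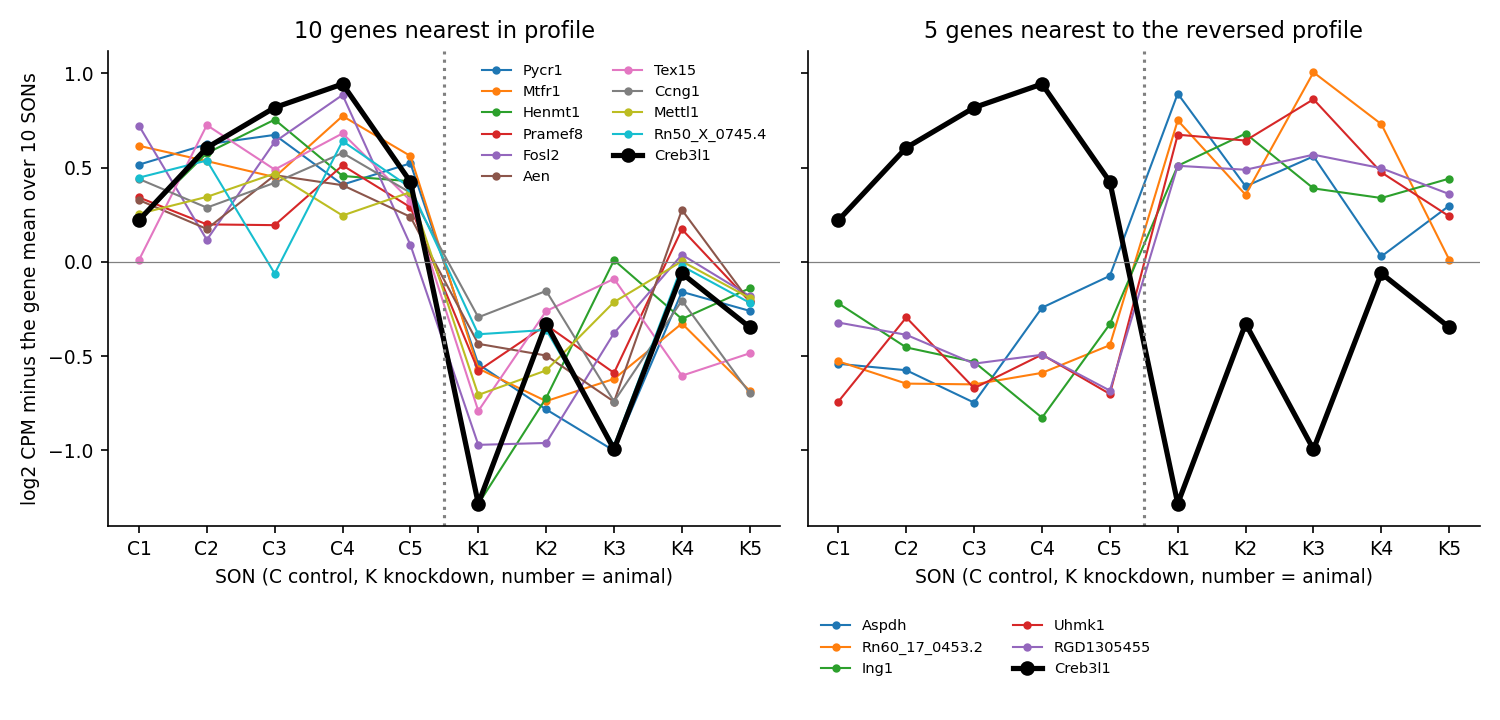
Log2 CPM of each gene minus its mean over the 10 SONs, with control (C) and knockdown (K) SONs numbered by animal and Creb3l1 in black. Left, the 10 named genes nearest in profile; right, the 5 nearest to the reversed profile. Creb3l1 has its lowest points in K1 and K3, and the other genes follow the step between the groups more closely than those 2 points.

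The promoter of Creb3l1 and those of the likeness sets were searched for the letters that factors of the CREB and CREB3 kind are known to bind. RefSeq promoters (GRCr8, another build than the Rn6 of the counts) spanned 250 bases before to 50 after the start of the gene and were matched by symbol. They were found for Creb3l1, 5 of the 10 nearest genes (Pycr1, Henmt1, Fosl2, Aen and Ccng1) and 3 of the 5 reversed genes (Aspdh, Ing1 and Uhmk1). The motifs were TGACGTCA, TGACGTGG, TGACG (part of both of these) and ACGTG, on both strands. Over 33469 promoters they were present in 1.83%, 0.595%, 21.2% and 19.3%. Among the 5 nearest genes, TGACG was present in Henmt1 and Aen, and ACGTG in Aen alone. TGACGTCA and TGACGTGG were in none of the 9 promoters, and none of the 4 was in that of Creb3l1 or of a reversed gene. The sequences of Creb3l1 (chr3:98449055-98449354, minus strand), as the targeted gene, and of the only members with a match, Henmt1 (chr2:199275388-199275687, plus strand) and Aen (chr1:142224283-142224582, plus strand), are given 5′ to 3′ with matches on either strand in capitals.
Creb3l1: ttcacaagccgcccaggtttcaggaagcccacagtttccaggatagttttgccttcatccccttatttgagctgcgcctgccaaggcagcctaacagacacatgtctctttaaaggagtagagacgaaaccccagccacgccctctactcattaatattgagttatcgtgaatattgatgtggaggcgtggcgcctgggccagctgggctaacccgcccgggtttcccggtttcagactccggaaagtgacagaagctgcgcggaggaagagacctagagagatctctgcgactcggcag
Henmt1: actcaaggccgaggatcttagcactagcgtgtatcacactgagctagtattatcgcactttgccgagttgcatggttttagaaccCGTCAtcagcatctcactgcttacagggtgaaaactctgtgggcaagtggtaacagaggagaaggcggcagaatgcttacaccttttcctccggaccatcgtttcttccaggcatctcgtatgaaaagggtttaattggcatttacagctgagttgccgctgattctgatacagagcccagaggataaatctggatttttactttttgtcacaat
Aen: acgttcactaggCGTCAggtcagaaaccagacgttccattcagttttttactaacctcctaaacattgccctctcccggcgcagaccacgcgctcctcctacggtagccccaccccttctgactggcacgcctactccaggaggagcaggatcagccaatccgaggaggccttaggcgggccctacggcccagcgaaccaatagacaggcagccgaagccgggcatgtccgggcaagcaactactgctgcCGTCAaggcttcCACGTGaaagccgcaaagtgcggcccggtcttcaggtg
A match is a description of these letters and not of binding. The study found other motifs at sites bound by Creb3l1, among them a GC-rich one, which were not searched here, and its bound sites were not used. The lack of a match is therefore no sign that Creb3l1 does not bind.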

How the data were processed

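RNA-seq was made from poly(A) RNA of 10 SONs of 5 rats with a stranded kit. Per the submitters' processing notes CASAVA, FastQC, STAR, featureCounts and DESeq2 1.28.1 were used. The authors aligned to rat Rn6 and deposited raw counts per gene and SON, as whole numbers without normalisation. The sample of each column was taken from its title and checked against the study's table of normalised counts, against which it held 1 constant ratio. No replicates agreed within sampling noise (lowest chi-square per degree of freedom 29.1). The labels do not give a batch.

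The counts were filtered with filterByExpr (minimum count 10), which left 16286 of 24286 genes with a count, scaled by TMM (factors 0.956 to 1.07) and tested with edgeR 4.0.16 in R 4.3.3 (quasi-likelihood, Benjamini-Hochberg threshold 0.05). The group fit had no animal term, the study's methods naming none for DESeq2. The slope fit added Creb3l1 log2 CPM (prior count 2) centred within groups. In the simulated data for the group difference, changes of 1 and 2 log2 units were recovered for 59.0% and 94.0% of 100 genes each, with 12 of the unchanged genes called, and in that for the slope 10 were called. The replicate numbers pair the SONs because both SONs of a number came from 1 animal. Within animals, the residuals around the group means correlated at -0.55 to 0.45 over genes (mean -0.196, other animals 0.054). Alternatives were DESeq2 1.42.0, limma-voom (limma 3.58.1), RLE, library size only, no filter, at least 10 counts in every SON, prior counts, the replicate block and leaving out each SON.

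Named were Creb3l1, the 10 genes nearest to its profile, the 5 nearest to the reversed profile, the 5 positive and 5 negative slopes of smallest p, genes past both tests (none were) and named members of the lists, with at least 1 CPM in a group. Genes naming the first component were chosen after their values were seen. Symbols came from a supplementary table of which 1999 genes were used. The gene and the lists were chosen with earlier results of these data known.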

Additional observations from a re-analysis of the deposited data

Results flagged for a closer look

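In 3 of 74 groups of 5 SONs tested on the CPM scale, 1 SON lay far from the other 4. Chance alone gives about 1 in 20 for normally distributed values, so this number is no sign of outlying SONs. The test was not run on log2 CPM, the scale of the other comparisons, where a high value stands out less. Gm14569 stood at 35.0 CPM in the knockdown SON of animal 4, against 2.63 to 10.2 CPM in the others, a gap of 0.767 of the group's range. Its positive slope on Creb3l1 (2.01) includes this SON, which had the highest Creb3l1 level of its group. Cartpt stood at 26.2 CPM in the knockdown SON of animal 3, against 6.57 to 11.2 CPM, a gap of 0.765 of the range. Col24a1 stood at 2.65 CPM in the knockdown SON of animal 1, where Creb3l1 was lowest, against 0.839 to 1.30 CPM, a gap of 0.747 of the range. The critical value for 5 SONs is 0.71.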

How the results depend on the processing

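Creb3l1 was lower under every alternative, with log2 fold changes of -1.33 to -1.02 when single SONs were left out (adjusted p 0.0194 to 0.0498, edgeR). With the replicate block it was -1.21 and no longer past the threshold (adjusted p = 0.0586). The count of genes called between groups was 2803 with DESeq2 and 9 with the replicate block, against 1280, and 519 to 1699 when single SONs were left out, the lowest without the knockdown SON of animal 1 and the highest without that of animal 3. It was more than 1.5 times lower without the control SON of animal 2, 3 or 5 and the knockdown SON of animal 1, 2 or 4. The block takes 4 of the residual degrees of freedom. The slope tests called 0 genes under every alternative except the block with single animals left out, which gave 0 to 1353 and was chosen after seeing the data. Of the 10 nearest genes 3 to 9 remained when single SONs were left out, and of the 5 reversed genes 2 to 5. The level left in each pair moved by less than the SD over pairs under RLE and library size, for example to 44.3% in animal 4. No alternative reversed a named gene's called fold change. Of these fold changes under alternatives 519 kept their side of the threshold, 83 lost the call and 25 gained it. The median log2 fold change over all genes was 0.04 with TMM, 0.03 with RLE and -0.02 with library size. In the simulated data, which lacked the spread that genes share in these SONs, slopes of 1 and 2 were recovered for 50.0% and 82.0% of genes. With 5 SONs a group, slopes of this size and smaller could thus be missed.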
